A study of Sus scrofa domesticus with 2 samples.

Results

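The TGF-beta genes described here were 8 of the 22804 genes counted in 2 single-cell libraries of cultured pig endothelial cells (ECs). They were chosen by name, as 3 ligand genes (TGFB1, TGFB2 and TGFB3), 2 receptor genes (TGFBR1 and TGFBR2), a matrix protein gene related to the latent TGF-beta binding proteins (LTBP2) and 2 genes known to respond to the pathway (SKIL and PMEPA1). All 8 were present in both count matrices, and all 8 had UMIs (unique molecular identifiers, each standing for 1 captured transcript) in both libraries.

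ECs had been released by enzyme digestion from the aorta and from a perfused lobe of the lung of the domestic pig, and both cultures were grown in the same DMEM-based medium with 10% fetal calf serum, for which no TGF-beta is listed as an additive. Each tissue gave 1 library made with the 10x Genomics 3' v3 kit from polyA RNA. The labels give no strain, age, sex, number of pigs or passage for either library. With 1 library for each tissue, tissue, animal, culture and library preparation cannot be told apart, and no test between groups was possible: the intervals below are 95% intervals that cover counting error only.

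The aorta matrix held 1185 cells with 46080859 UMIs and the lung matrix 5946 cells with 57213236 UMIs. Cells with under 30% mitochondrial UMIs were used. In the aorta these were the 709 deep cells with 5000 or more detected genes (median 58476 UMIs a cell), which lie above the upper limit on genes in the methods of the study, and in the lung the 5683 cells with more than 200 and fewer than 5000 genes (median 9453 UMIs). Of the cells used, 3 barcodes occurred in both libraries. A cell was placed on the PECAM1 side when its UMIs of PECAM1, an endothelial adhesion gene, exceeded the sum for the fibrillar collagen genes COL1A1 and COL1A2, and on the collagen side in the opposite case. The PECAM1 side held 581 deep aorta and 5282 lung cells, and the collagen side 128 and 348. A further 16 lung cells were led by macrophage genes and 37 lung cells fell on no side.

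The endothelial label was checked against 13 marker genes. Their summed level on the PECAM1 side was 1846 CPM (the summed UMIs of a gene per 1000000 UMIs of the group) in the deep aorta and 1716 CPM in the lung, against 87.0 and 243 CPM on the collagen side. Among them CDH5, the endothelial cadherin, stood at 193 and 157 CPM on the PECAM1 side, whereas VWF (0.202 and 0.404 CPM) and KDR, the main VEGF receptor (0.375 and 1.77 CPM), were nearly absent. The collagen side carried the smooth muscle list at 3678 CPM in the aorta and 3649 CPM in the lung and the receptor gene PDGFRB at 126 and 136 CPM. The smooth muscle list was not absent from the PECAM1 side, at 245 and 966 CPM, with the contractile gene TAGLN alone at 958 CPM in the lung. The collagen-rich mesenchymal list summed to 2459 and 2710 CPM on the collagen side, against 785 and 316 CPM on the PECAM1 side, and the pericyte list, nearly all of it CSPG4, to 184 and 181 CPM against 1.01 and 2.44 CPM. Macrophage list genes summed to at most 3.34 CPM in any of these 4 groups, and the epithelial, mesothelial and lymphatic lists to at most 32.1 CPM.

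TGF-beta ligands are secreted in a latent form that is bound to the matrix until it is activated. An active ligand is bound by the type II receptor, which recruits and phosphorylates the type I receptor, and SMAD2 and SMAD3 then carry the signal to the nucleus with SMAD4. TGF-beta2 needs a co-receptor for tight binding to the type II receptor, and the pathway is widely studied in cultured endothelium because it can drive endothelial cells towards a mesenchymal state. SKIL encodes SnoN, a repressor of SMAD complexes, and PMEPA1 encodes a membrane protein that binds SMADs. Both genes are induced by the pathway and restrain it.

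The 8 genes lie on 6 pig chromosomes in the Sscrofa11.1 build. By RefSeq, TGFB1 spans chr6:49332169-49348642 on the minus strand, TGFB2 chr10:8306136-8435307 on the plus strand, TGFB3 chr7:99133873-99162239 on the minus strand, TGFBR1 chr1:240842735-240918267 on the plus strand and TGFBR2 chr13:16784370-16875828 on the plus strand. LTBP2 lies at chr7:97744974-97852848 (minus strand), on the same chromosome as TGFB3. SKIL lies at chr13:109029831-109059176 (plus strand), on the chromosome of TGFBR2, and PMEPA1 at chr17:57999287-58054329 (minus strand).

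The 250 bases in front of the RefSeq start are shown for the 3 ligands and for the type II receptor, the 4 genes whose levels separated the sides most clearly. They are given 5' to 3' on the strand of the gene, with capitals for the letters GGGCGG (the core of an SP1 site) or TGACTCA (an AP-1 site) on either strand.
TGFB1: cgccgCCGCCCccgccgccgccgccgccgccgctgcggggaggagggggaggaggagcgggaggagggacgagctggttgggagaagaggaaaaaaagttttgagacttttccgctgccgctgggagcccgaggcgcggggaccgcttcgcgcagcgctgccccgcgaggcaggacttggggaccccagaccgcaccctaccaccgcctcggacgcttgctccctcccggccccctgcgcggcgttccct
TGFB2: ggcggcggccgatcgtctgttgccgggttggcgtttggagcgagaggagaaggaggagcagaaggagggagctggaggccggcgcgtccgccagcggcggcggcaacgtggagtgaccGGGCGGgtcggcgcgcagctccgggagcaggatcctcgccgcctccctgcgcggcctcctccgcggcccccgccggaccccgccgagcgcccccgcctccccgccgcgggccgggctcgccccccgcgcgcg
TGFB3: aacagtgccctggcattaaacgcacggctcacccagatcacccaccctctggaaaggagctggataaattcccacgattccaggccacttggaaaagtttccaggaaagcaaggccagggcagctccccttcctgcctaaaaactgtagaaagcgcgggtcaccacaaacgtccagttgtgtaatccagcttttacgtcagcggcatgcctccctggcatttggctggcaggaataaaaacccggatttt
TGFBR2: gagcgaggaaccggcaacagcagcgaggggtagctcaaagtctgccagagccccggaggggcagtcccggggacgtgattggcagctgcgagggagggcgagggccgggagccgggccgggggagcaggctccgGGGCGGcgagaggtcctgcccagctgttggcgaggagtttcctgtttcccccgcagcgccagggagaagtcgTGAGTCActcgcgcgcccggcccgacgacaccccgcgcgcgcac

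The TGFB1, TGFB2 and TGFBR2 stretches (chr6:49348643-49348892, chr10:8305886-8306135 and chr13:16784120-16784369) were 74.0%, 80.0% and 72.8% G or C and held 32, 42 and 28 CpG dinucleotides. The TGFB3 stretch (chr7:99162240-99162489) was 52.8% G or C with 9 CpG dinucleotides, below the median of 57.6% over 19534 protein-coding genes. GGGCGG was found upstream of TGFB1, TGFB2, TGFBR2 and SKIL, and in 45.9% of all promoter stretches of this length. TGACTCA was found upstream of TGFBR2 alone among the 8 genes, 44 to 38 bases before the start, and in 2.89% of all stretches. The 2 motifs share no base in these 4 sequences. Also sought were a cyclic AMP response element (TGACGTCA), a TATA box (TATAAA), an E-box (CACGTG), a SMAD element (CAGACA) and an ETS core (CCGGAAG). None of these was found upstream of the 8 genes. They occurred in 1.70%, 9.77%, 6.39%, 12.8% and 7.78% of all stretches. A match describes letters only, and the assay measured no binding.

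The ligand genes divided by side in the same direction in both libraries. On the PECAM1 side TGFB2 was at 491 CPM in the deep aorta (95% interval 483 to 498, 17006 UMIs) and at 303 CPM in the lung (298 to 307). On the collagen side it was at 43.4 CPM (39.1 to 48.0) in the aorta and 85.0 CPM (76.0 to 94.6) in the lung. TGFB2 was therefore 11.3 times as high on the PECAM1 side in the aorta (10.2 to 12.6) and 3.56 times as high in the lung (3.19 to 3.98).

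TGFB3 had the opposite pattern and was close to undetected among PECAM1-side cells. It was at 71.1 CPM on the aorta collagen side (65.6 to 76.9, 621 UMIs) and at 59.3 CPM on the lung collagen side (51.9 to 67.4, 231 UMIs). The PECAM1 side gave 0.721 CPM from 25 UMIs in the aorta and 0.500 CPM from 26 UMIs in the lung. The collagen-side level was thus 98.6 times the PECAM1-side level in the aorta (66.1 to 154) and 119 times in the lung (78.9 to 186). With every cell thinned to 5000 UMIs, TGFB3 was seen in 28.9% of aorta and 22.4% of lung collagen-side cells, against 0.688% and 0.223% of PECAM1-side cells (89.8% and 38.8% against 3.79% and 0.492% before thinning).

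The few TGFB3 UMIs on the PECAM1 side amounted to 1.01% of the collagen-side level in the aorta and 0.843% in the lung. The collagen genes COL1A1 and COL1A2, on which the sides were split, stood there at 0.414% and 0.848% of their collagen-side levels in the aorta and at 0.259% and 0.241% in the lung. The smooth muscle actin gene ACTA2 stood at 0.184% and 0.405% in the aorta and lung, and the proteoglycan gene CSPG4 at 0.147% and 0.211%. Other mesenchymal markers spread more widely, with PDGFRB at 1.60% and COL3A1 at 20.7% in the aorta and with CNN1 at 2.30% and TAGLN at 43.3% in the lung, so that TGFB3 was not ranked against them. Among cells without a single UMI of the other side, chosen after seeing the data (60 collagen-side against 95 PECAM1-side cells in the aorta, 224 against 4088 in the lung), the TGFB3 ratio was 68.1 (28.8 to 212) in the aorta and 135 (83.4 to 231) in the lung. The part of RNA from other cells in the few TGFB3 UMIs was not tested.

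TGFB1 was found on both sides, at higher level on the collagen side. It measured 70.6 CPM (67.9 to 73.5) and 92.7 CPM (90.1 to 95.3) on the PECAM1 side of the aorta and lung, and 185 CPM (176 to 194) and 240 CPM (225 to 256) on the collagen side. The ratio was almost the same in the 2 libraries, 2.62 (2.46 to 2.79) in the aorta and 2.59 (2.41 to 2.78) in the lung. Among aorta cells with fewer than 5000 genes it was 1.78, which is under 2-fold. In order of level, TGFB1 ran from the aorta PECAM1 side through the lung PECAM1 side and the aorta collagen side to the lung collagen side, and no neighbouring intervals overlapped.

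**Figure D1:**
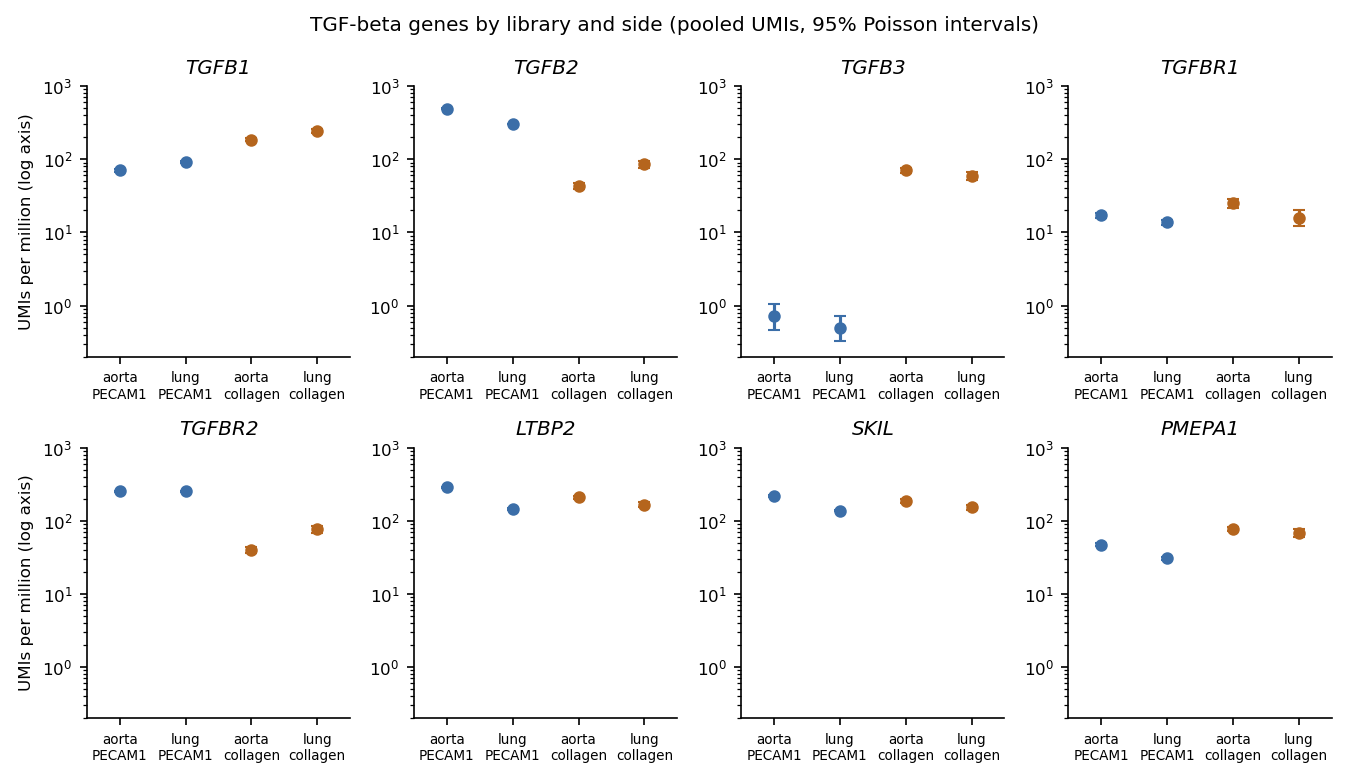
Pooled level of each TGF-beta gene in CPM (log axis) on the PECAM1 side (blue) and the collagen side (brown) of the deep aorta and lung cells, with bars for 95% Poisson intervals that cover counting error only. TGFB2 and TGFBR2 lie higher on the PECAM1 side, TGFB1 and TGFB3 higher on the collagen side, and TGFB3 is under 1 CPM on both PECAM1 sides.

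The type II receptor followed TGFB2. TGFBR2, which binds the ligand, was at 253 CPM (247 to 258) on the aorta PECAM1 side and 252 CPM (248 to 256) on the lung PECAM1 side, levels whose intervals overlap. The collagen side gave 39.7 CPM (35.7 to 44.1) in the aorta and 76.5 CPM (68.0 to 85.7) in the lung. TGFBR2 was 6.36 times as high on the PECAM1 side in the aorta (5.71 to 7.10) and 3.29 times in the lung (2.94 to 3.71).

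The type I receptor gene TGFBR1 was low in these 4 groups and within 2-fold between the sides. It stood at 17.1 CPM (15.8 to 18.5) and 13.7 CPM (12.7 to 14.8) on the PECAM1 side of the aorta and lung and at 25.1 CPM (21.9 to 28.6) and 15.9 CPM (12.2 to 20.4) on the collagen side. The collagen-side level was 1.47 times the PECAM1-side level in the aorta (1.25 to 1.71). In the lung the ratio was 1.16 with an interval that reached down to 0.880 and included 1, so that a difference was not detectable at this depth. Only 6.33% of lung PECAM1-side cells showed a TGFBR1 UMI after thinning to 5000 UMIs, against 70.2% for TGFBR2. Levels of different genes are not divided by length in a 3' assay and also depend on how the 3' end of each gene is annotated, so the 2 receptors are not ranked against each other.

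Endothelial RNA remained on the collagen side to a different degree in the 2 libraries. The collagen-side level of CDH5 was 2.43% of its PECAM1-side level in the aorta and 12.5% in the lung, and that of the endothelial surface gene ECSCR 1.98% and 12.1%. EGFL7, which encodes a secreted endothelial factor, stood at 3.21% and 16.0%, and the receptor gene TIE1 at 0.883% and 13.8%. Over the endothelial markers at 20 CPM or more on the PECAM1 side, the median was 2.21% in the aorta (10 markers, 0.659% to 31.3%) and 13.8% in the lung (9 markers, 8.98% to 25.8%), with the transcription factor gene ERG the highest in both. TGFB2 was at 8.84% in the aorta and 28.1% in the lung, and TGFBR2 at 15.7% and 30.4%. In the aorta both genes thus lay below ERG and above all the other markers, of which TEK was the highest at 6.23%. In the lung both lay above all 9 markers. Among the cells without a UMI of the other side the collagen over PECAM1 ratio was 0.0904 for TGFB2 in the aorta and 0.221 in the lung. The same cells gave 0.141 and 0.209 for TGFBR2.

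**Figure D2:**
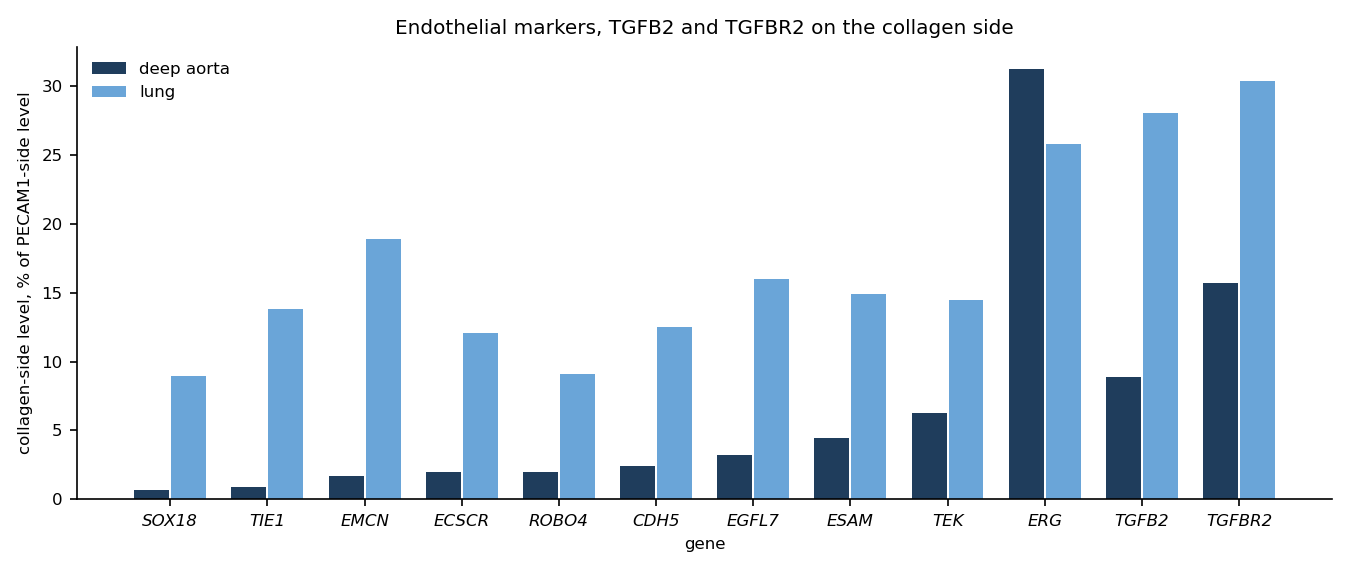
Collagen-side level as a percentage of the PECAM1-side level, for the 10 endothelial markers at 20 CPM or more on the aorta PECAM1 side, TGFB2 and TGFBR2, in the deep aorta (dark bars) and the lung (light bars). ERG, at 31.3%, stands above TGFB2 and TGFBR2 in the aorta and below both, at 25.8%, in the lung. The other aorta markers, at most 6.23% (TEK), stand below both. TEK was at 17.8 CPM on the lung PECAM1 side and is not among the 9 lung markers.

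LTBP2 and the response genes differed less between the sides. LTBP2, which encodes a fibrillin-like matrix protein of the latent TGF-beta binding protein family, was at 287 CPM on the aorta PECAM1 side and 209 CPM on the aorta collagen side, a ratio of 0.728 (0.692 to 0.765). In the lung it was at 146 and 166 CPM, a ratio of 1.14 (1.05 to 1.24). SKIL was at 217 and 185 CPM on the 2 sides of the aorta, a ratio of 0.855 (0.810 to 0.902), and at 137 and 152 CPM in the lung, a ratio of 1.11 (1.02 to 1.21). Both genes were thus slightly lower on the collagen side in one library and slightly higher in the other.

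PMEPA1 was higher on the collagen side in both libraries. It was at 47.2 CPM (45.0 to 49.6) on the aorta PECAM1 side and 77.2 CPM (71.5 to 83.2) on the aorta collagen side, a ratio of 1.63 (1.49 to 1.79). The lung gave 30.9 CPM (29.4 to 32.4) and 68.5 CPM (60.6 to 77.3), a ratio of 2.22 (1.94 to 2.53). Under other settings the aorta ratio ran from 1.41, among aorta cells under 5000 genes, to 2.37, among aorta cells without a UMI of the other side.

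Genes were counted as different when they differed by 2-fold or more with at least 20 UMIs in the groups together. By this rule 2 of the 8 genes were higher and 2 lower on the collagen side of the deep aorta, with 4 within 2-fold. Over all 11995 genes with enough UMIs, 8.56% were higher and 18.4% lower. In the lung 3 of the 8 were higher (TGFB1, TGFB3 and PMEPA1) and 2 lower (TGFB2 and TGFBR2), against 8.55% higher and 14.6% lower of 12029 genes. Among genes at 20 CPM or more on both sides, the median log2 fold was 0.05 in the aorta (4893 genes) and -0.01 in the lung (4861 genes).

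**Figure D3:**
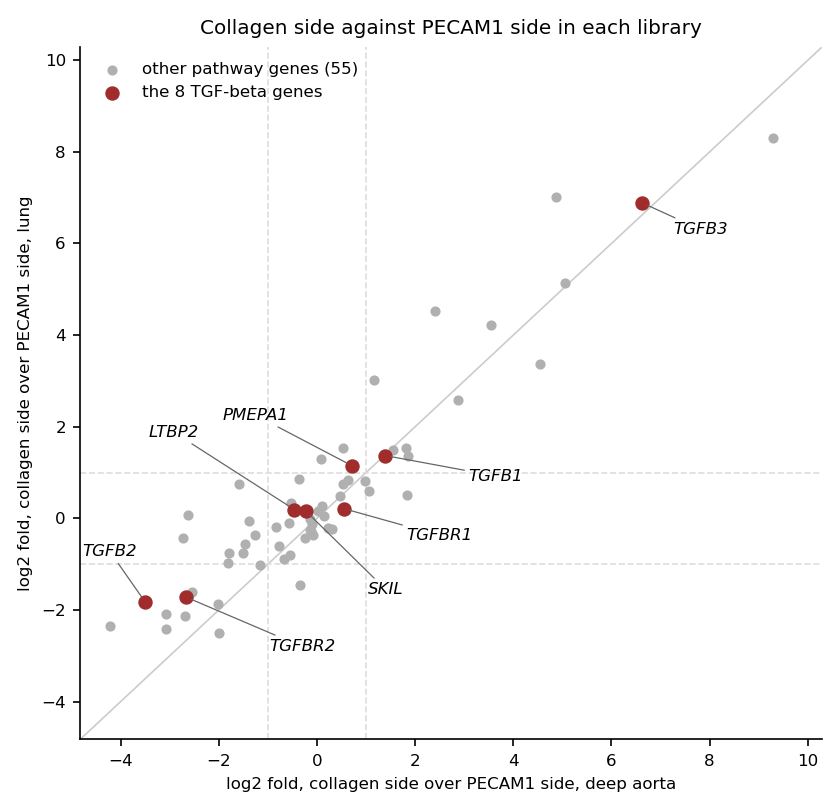
Log2 fold of the collagen side over the PECAM1 side in the deep aorta (x axis) and in the lung (y axis) for the 8 TGF-beta genes (red) and 55 further pathway genes (grey) that had UMIs on both sides, with dashed lines at 2-fold and a diagonal of equal folds. TGFB3 lies near the upper right corner, TGFB2 and TGFBR2 at the lower left, and LTBP2 and SKIL near 0 on both axes.

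Further genes of the pathway were counted from 4 lists with 62 genes, 59 of them in the matrices. On the aorta collagen side 13 of 56 genes with enough UMIs were higher and 18 lower, and on the lung collagen side 13 of 56 were higher and 10 lower. Over all genes with enough UMIs 8.56% were higher and 18.4% lower in the aorta, and 8.55% and 14.6% in the lung. The median log2 fold of the lists was -0.14 and -0.05, near that over all genes with enough UMIs (-0.05 and -0.03). A median near 0 does not show how many genes moved either way.

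Of the pathway's co-receptor list, 3 of 5 genes were lower on the collagen side in each library and none higher. Among all genes 18.4% were lower in the aorta and 14.6% in the lung. ENG, the endothelial co-receptor endoglin, was at 391 CPM on the aorta PECAM1 side against 46.4 CPM on the collagen side, 8.44 times as high, and in the lung at 208 against 49.0 CPM, 4.25 times as high. TGFBR3, another of the genes lower on the collagen side, was low on both sides. It was at 3.20 CPM on the aorta PECAM1 side and 0.802 CPM on the collagen side. In the lung it was at 2.92 and 0.513 CPM, the latter from 2 UMIs.

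Of the intracellular mediators and brakes, 3 of 14 were lower in the aorta and 2 of 14 in the lung, shares near the 18.4% and 14.6% lower among all genes, and none was higher in either. SMAD3, a signal carrier, was at 71.0 and 12.1 CPM on the PECAM1 and collagen sides of the aorta and at 67.1 and 22.1 CPM in the lung. SMAD2, its partner, was at 76.5 and 33.9 CPM in the aorta, 2.26 times as high on the PECAM1 side. In the lung it was at 65.0 and 32.3 CPM, 2.01 times as high on that side. The ligand storage and activation list was mixed. On the collagen side 3 of 13 genes were higher and 4 lower in the aorta, and 3 of 13 higher and 1 lower in the lung. Among all genes 8.56% were higher in the aorta and 8.55% in the lung. From this list ITGB5, an integrin subunit, was 18.6 times as high on the PECAM1 side in the aorta (250 against 13.4 CPM). In the lung it was 5.08 times as high there (154 against 30.3 CPM).

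The list of response genes was split. On the collagen side 10 of 24 were higher in each library, while 8 of 24 were lower in the aorta and 4 of 24 in the lung. The shares among all genes were 8.56% higher and 18.4% lower in the aorta, and 8.55% and 14.6% in the lung. VCAN, which encodes the matrix proteoglycan versican, was 33.1 times as high on the collagen side in the aorta (435 against 13.1 CPM) and 35.3 times in the lung (349 against 9.88 CPM). The metalloprotease gene ADAM12 was 29.2 and 129 times as high, the sphingosine kinase gene SPHK1 23.4 and 10.4 times, and the small proteoglycan gene BGN 11.7 and 18.5 times. FSTL3, which encodes a follistatin-like inhibitor of activins, was 7.30 times as high on the aorta collagen side. The transcription factor gene RUNX1 was 5.29 times as high on the collagen side in the aorta and 23.0 times in the lung.

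In the other direction the oxidase gene NOX4 was 8.38 times as high on the PECAM1 side in the aorta (117 against 14.0 CPM) and 5.34 times in the lung (82.2 against 15.4 CPM). FN1, the fibronectin gene, was 6.14 times as high on the aorta PECAM1 side (479 against 78.0 CPM), whereas in the lung it was within 2-fold, at 134 against 141 CPM. Many of these response genes are also known marks of mesenchymal or endothelial identity, and the part of cell identity in these counts was not tested.

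Between the PECAM1 sides of the 2 libraries none of the 8 genes differed by 2-fold, whereas 7.07% of 12564 genes were 2-fold higher and 2.99% 2-fold lower in the deep aorta cells. TGFBR2 had a ratio of 1.00 (0.977 to 1.03). LTBP2 came nearest to the limit, at 1.97 times the lung level (1.91 to 2.03). TGFB2 was at 1.62 times (1.59 to 1.66), SKIL at 1.58 (1.53 to 1.64), PMEPA1 at 1.53 (1.43 to 1.64) and TGFBR1 at 1.25 (1.12 to 1.39) times the lung level. TGFB1 was lower in the aorta, at 0.762 times (0.726 to 0.800). TGFB3, with 25 and 26 UMIs, had a ratio of 1.44 with an interval from 0.800 to 2.60. Of the pathway lists 9 of 55 genes were higher in the aorta cells and 1 lower. FN1 was at 479 against 134 CPM, 3.58 times as high, and POSTN, the periostin gene, at 766 against 363 CPM, 2.11 times as high.

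Depth moved with the library in this comparison: the median deep aorta cell on the PECAM1 side held 57099 UMIs and the median lung cell 9416. The aorta cells with fewer than 5000 genes and 1% or more mitochondrial UMIs offered a comparison nearer in depth (96 PECAM1-side cells, median 9730 UMIs). There TGFB2 was at 438 CPM (401 to 478), TGFBR2 at 366 (332 to 403), LTBP2 at 391 (356 to 429), SKIL at 233 (206 to 263) and PMEPA1 at 66.9 CPM (52.8 to 83.6). In these cells, chosen after seeing the data, LTBP2 and PMEPA1 were 2.68 and 2.17 times the lung level, past 2-fold. TGFB1 turned in direction there, at 103 CPM (85.7 to 124) and 1.12 times the lung level.

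Cell cycle phase was scored within each library from S and G2M gene lists. On the PECAM1 side the aorta had 283 G1, 123 S and 175 G2M cells and the lung 2219, 1202 and 1861. TGFB2 was highest in G1 in both libraries. It was at 640 CPM in G1, 352 in S and 369 in G2M in the aorta, which gave 0.551 (0.528 to 0.574) and 0.576 (0.555 to 0.598) times the G1 level in S and G2M. In the lung it was at 362, 251 and 273 CPM, or 0.694 (0.665 to 0.723) and 0.754 (0.727 to 0.781) times the G1 level.

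PMEPA1 showed a like order. It was at 64.1, 36.2 and 30.1 CPM in G1, S and G2M of the aorta, and at 38.6, 25.2 and 26.5 CPM in the lung. The G2M level in the aorta was 0.469 times that in G1 (0.413 to 0.532), the only member and phase past 2-fold. The share of all genes past 2-fold in either direction was 12.1% for S and 12.3% for G2M in the aorta and 6.78% and 6.84% in the lung.

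TGFBR2 was at 299, 202 and 220 CPM in G1, S and G2M of the aorta and at 288, 207 and 243 CPM in the lung, lowest in S in both, although the S and G2M intervals touch in the aorta (192 to 212 and 212 to 229). LTBP2 was at 337, 246 and 243 CPM in the aorta and 163, 136 and 134 CPM in the lung. SKIL was lowest in S in both libraries, with 234, 181 and 217 CPM in the aorta and 145, 119 and 140 CPM in the lung. Its lung G2M level was 0.971 times that in G1, with an interval from 0.921 to 1.02.

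TGFB1 differed from TGFB2 in that its S level stayed near G1: the S over G1 ratio was 0.904 (0.816 to 1.00) in the aorta and 1.01 (0.939 to 1.08) in the lung, and the G2M ratio 0.777 (0.706 to 0.855) and 0.788 (0.737 to 0.842). In the cells of the main comparison TGFBR1 was not lower in S or G2M in either library, with ratios from 1.03 (0.827 to 1.28) for S in the aorta to 1.23 (1.03 to 1.46) for G2M in the lung. Its S and G2M ratios were 0.587 and 0.594 in aorta cells under 5000 genes and 1.73 and 1.31 in aorta cells thinned to 5000 UMIs, so no direction was drawn for the aorta. TGFB3 had fewer than 20 UMIs in each pair of phases. Of the pathway lists, 1 of 55 genes was higher and 4 lower in S than in G1 of the aorta, and 1 higher and 3 lower in G2M. In the lung the counts were 2 and 0 for S and 1 and 1 for G2M. Over all genes with enough UMIs, 12.1% in S and 12.3% in G2M were past 2-fold either way in the aorta. The lung shares were 6.78% and 6.84%. By direction, 893 of 11290 genes were higher and 478 lower in S of the aorta, and 848 and 553 of 11381 in G2M. LTBP1, which encodes a protein that stores latent TGF-beta in the matrix, was at 90.3 CPM in G1 and 39.7 CPM in S of the aorta, a ratio of 0.439 (0.387 to 0.497). The median mitochondrial share also differed between phases, with 6.94% in G1, 5.63% in S and 5.75% in G2M of the aorta, and its part in these ratios was not tested.

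**Figure D4:**
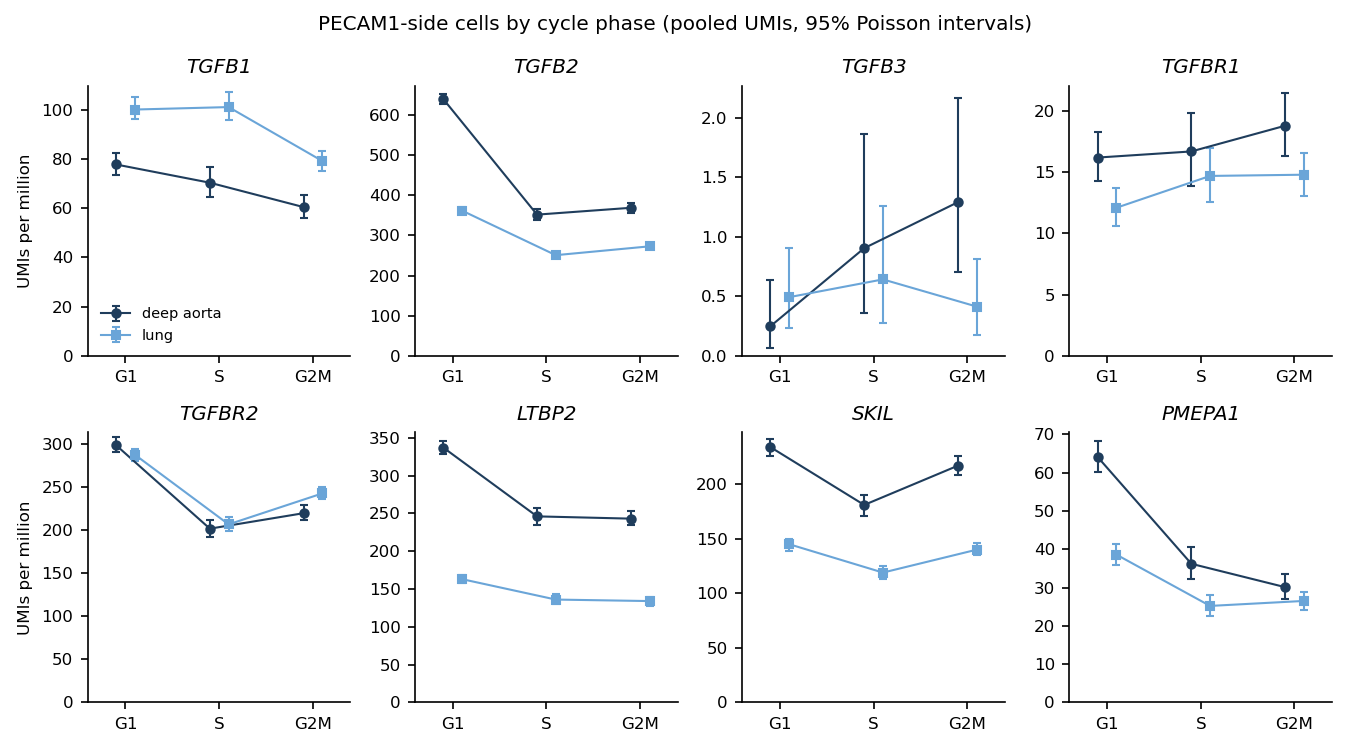
Pooled level of each gene on the PECAM1 side in CPM by cycle phase (G1, S, G2M) for deep aorta (dark circles) and lung (light squares), with 95% Poisson intervals; each vertical axis starts at 0. TGFB2 and PMEPA1 are highest in G1 in both libraries, TGFBR1 is not, and TGFB3 rests on 25 and 26 UMIs in all.

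On the collagen side TGFB2 was at 76.1 CPM (58.4 to 97.3) in G1, 53.1 CPM (44.8 to 62.6) in S and 33.2 CPM (28.5 to 38.6) in G2M of the aorta, where G1 held only 12 cells and its interval overlapped that of S. In the lung it was at 107 CPM (88.7 to 127), 67.8 CPM (53.2 to 85.1) and 80.9 CPM (67.7 to 96.0), with the G1 and G2M intervals overlapping. TGFBR2 was at 59.2, 41.5 and 35.7 CPM in the aorta and 107, 68.7 and 59.5 CPM in the lung. Endothelial transcripts moved with phase in the same cells: PECAM1 was at 132, 12.7 and 15.9 CPM in G1, S and G2M of the aorta and at 246, 151 and 115 CPM in the lung, and CDH5 at 27.8, 1.87 and 2.48 CPM in the aorta. Their part in the TGFB2 and TGFBR2 values was not tested. PMEPA1 was at 68.8, 75.2 and 79.5 CPM in the aorta and 75.0, 65.0 and 66.2 CPM in the lung, with overlapping intervals between G1 and both other phases. TGFB3 was at 26.6 CPM (16.6 to 40.2) in the 12 G1 cells of the aorta, below 89.8 CPM (78.8 to 102) in S and 68.6 CPM (61.7 to 76.1) in G2M, and at 49.4, 52.2 and 71.1 CPM in the lung.

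The deep aorta cells allowed the spread from cell to cell to be described. After each of the 581 PECAM1-side cells was thinned to 20000 UMIs, a cell held a median of 9 TGFB2 UMIs, with quartiles at 5 and 14 and a highest count of 39. TGFB2 was missing from 2.41% of cells, and a Poisson count with the same mean of 9.82 would leave 0.00544% of cells without one. Its variance was 4.57 times its mean, the highest of the 8 genes. Variance over mean tends to rise with the mean, and TGFB2 also had the highest mean. The genes are therefore not ranked by spread. Within G1 cells alone the TGFB2 ratio was 4.36, within S cells 2.68 and within G2M cells 3.54.

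The other members had lower ratios and also lower means. Variance over mean was 1.96 for LTBP2, 1.88 for PMEPA1, 1.73 for TGFBR2, 1.70 for SKIL, 1.10 for TGFB1 and 1.04 for TGFBR1. PMEPA1 was seen in about as many cells as not, with 49.2% of cells at 0, and yet reached 12 UMIs in a single cell. A Poisson count with its mean of 0.926 would leave 39.6% of cells at 0.

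Transcripts of ligand and receptor occurred in the same cells. At 20000 UMIs a cell, 553 of 581 deep aorta PECAM1-side cells (95.2%, exact binomial interval 93.1 to 96.8) held both TGFB2 and TGFBR2, and 151 (26.0%, 22.5 to 29.8) held TGFBR1 as well. In the lung at 5000 UMIs a cell the shares were 48.7% and 2.98% of 4930 cells. These shares depend on depth and are not compared between the libraries.

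Across the 581 deep aorta cells the Spearman correlation with TGFB2 was 0.23 for LTBP2, 0.18 for TGFBR2, 0.12 for PMEPA1 and 0.02 for TGFB1. SKIL and PMEPA1, the 2 response genes, had 0.17. Across 4930 lung cells at 5000 UMIs the correlation with TGFB2 was 0.02 for LTBP2, 0.04 for TGFBR2 and 0.02 for PMEPA1. The cells share 1 library, and the mitochondrial share of a cell moved with TGFB2 (0.24) and LTBP2 (0.26) to the same degree as the genes with each other.

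**Figure D5:**
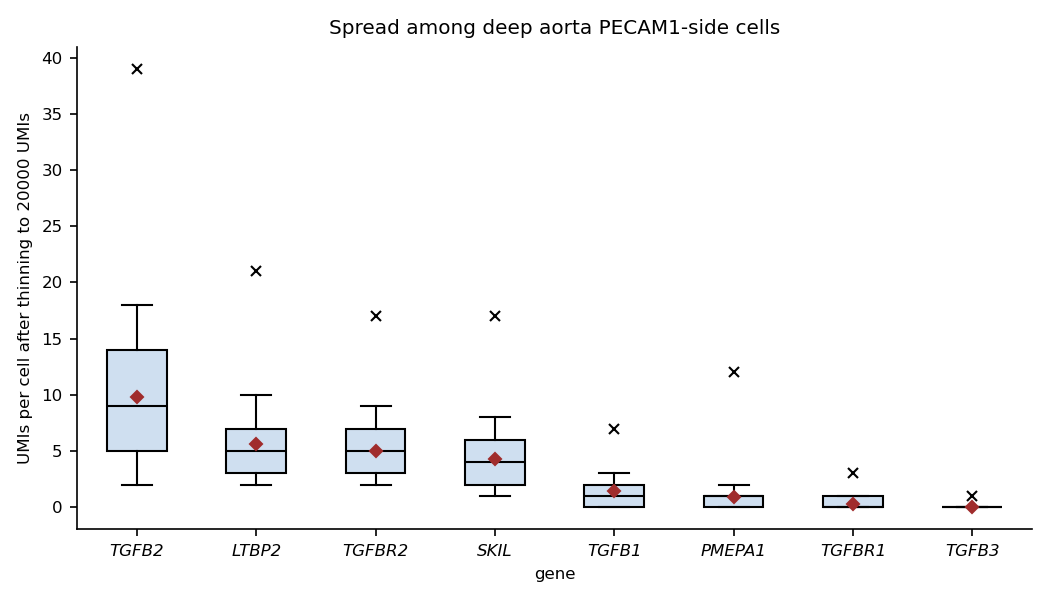
UMIs of each gene per deep aorta PECAM1-side cell (581 cells) after thinning to 20000 UMIs. Boxes span the quartiles with a line at the median, whiskers reach the 10th and 90th percentiles, diamonds mark the mean and crosses the highest cell; TGFB2 has the widest box, from 5 to 14 UMIs.

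The members' patterns over the 12 groups formed by library, side and phase were compared with those of 6970 genes by the Pearson correlation of log2(CPM + 1). The groups share libraries and sides, and the part of the side split in these correlations was not tested. Nearest to TGFB2 were TMC6 and ENPP6 (both r = 0.990) and ATP5PF (0.988), and nearest to TGFBR2 were BCR (0.992), WWTR1 (0.991) and ENSSSCG00000001229 (0.990). TGFB2 and TGFBR2 had r = 0.98 with each other. Nearest to TGFB3 were ST8SIA1 (0.994), the type VI collagen gene COL6A3 (0.993) and EMX2 (0.992). Nearest to TGFB1 were LIMS1 and CLEC11A (both 0.982) and HECW2 (0.974).

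LTBP2, whose level followed the library more than the side, was nearest to CRYAB (0.967), TMBIM4 (0.952) and SLC44A1 (0.936). SKIL was nearest to PTGS2 (0.927), SEC22B (0.924) and ENSSSCG00000011147 (0.922), PMEPA1 to LGMN (0.960), TSPAN31 (0.958) and TMSB4X (0.952), and TGFBR1 to TMEM33 (0.947), TAF13 (0.936) and MSH4 (0.932).

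Smaller groups of cells crossed these patterns. In the lung collagen side, 253 cells with more PDGFRB and CSPG4 than WT1 and IGFBP5 UMIs had TGFB3 at 69.8 CPM (60.5 to 80.1), TGFB1 at 256 CPM (238 to 275) and LTBP2 at 189 CPM (173 to 205). The 68 cells with the opposite balance had 30.5 CPM (19.3 to 45.7), 187 CPM (157 to 220) and 95.4 CPM (74.6 to 120) for the same genes. TGFB2 hardly differed between them, at 74.6 CPM (65.0 to 85.2) and 80.8 CPM (61.8 to 104).

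Among deep aorta PECAM1-side cells, the 31 with 10 or more UMIs of the chemokine gene CCL5 had TGFB2 at 342 CPM (316 to 369) and PMEPA1 at 86.3 CPM (73.5 to 101), and the other 550 had 499 CPM (492 to 507) and 45.0 CPM (42.7 to 47.4). In the lung, 102 PECAM1-side cells with 5 or more UMIs of the interferon-induced genes CXCL10, RSAD2 and IFIT2 had TGFB2 at 343 CPM (310 to 378) and TGFBR2 at 294 CPM (264 to 327), against 302 and 251 CPM in the remaining 5180. The 16 lung PECAM1-side cells with at least 2 UMIs each of ACTA2 and TAGLN, both contractile genes, had TGFB2 at 323 CPM (247 to 416) and TGFBR2 at 162 CPM (109 to 231). They had no TGFB3 UMI, with an interval from 0 to 19.9 CPM.

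The 16 macrophage-side lung cells had TGFBR1 at 137 CPM (78.1 to 222) from 16 UMIs, with a lower bound above the upper bounds of all 4 main groups. Their TGFB1 level was 205 CPM (131 to 305) and TGFB3 gave 0 UMIs, with an interval from 0 to 31.5 CPM. They also held TGFB2 and TGFBR2 at 145 CPM each, PECAM1 at 401 CPM and CDH5 at 34.2 CPM. The part of endothelial RNA in their TGFB2 and TGFBR2 levels was not tested. The 110 aorta barcodes with fewer than 5000 genes and under 1% mitochondrial UMIs had TGFB2 at 54.2 CPM (34.0 to 82.1), TGFBR2 at 39.4 (22.5 to 64.0) and LTBP2 at 17.2 (6.93 to 35.5). TGFBR1 was at 0 there, with an interval from 0 to 9.09 CPM. PMEPA1 was at 34.5 CPM (18.9 to 57.9), TGFB1 at 51.7 CPM (32.0 to 79.1) and SKIL at 96.1 CPM (68.3 to 131).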

How the data were processed

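Single-cell RNA of 2 cultures was counted by the authors with Cell Ranger 3.0.2, per the labels, on the Ensembl annotation of Sscrofa11.1, and the deposited values are raw UMI counts per gene and cell, 1 library for each tissue. Of 22804 genes, 7821 carried only an identifier and 1051 of these were named from a gene table. Cells were limited by genes (200 and 5000) and mitochondrial UMIs (30%, 12 genes), split by PECAM1 against COL1A1 and COL1A2, and given a phase by Seurat 5.3.0 in R 4.3.3. Levels were summed UMIs scaled to 1000000 UMIs (CPM) with exact Poisson intervals, shares had Clopper-Pearson intervals and ratios exact conditional binomial intervals, all at 95% and for counting error only. Scripts ran in Python 3.11.15 with scipy 1.17.1 and scanpy 1.11.5 and were checked on simulated counts. Scrublet called 9 of 955 aorta and 2 of 5709 lung cells as doublets, too few in the lung to have worked, so no cell was removed. The genes, the pathway and marker lists and the thresholds were chosen with earlier results of these data known. Named were all 8 genes, up to 5 pathway genes each way with the largest folds at 50 CPM or more in one group, and the 3 genes nearest each member. TGFBR3, below 50 CPM, was named in addition. Genes nearest a member were sought among those at 20 CPM or more in at least 1 group. Alternatives covered the side split, limits on cells, depth, weighting of cells, doublets, scaling, the UMI minimum, the fold and phase calls.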

Additional observations from a re-analysis of the deposited data

Results flagged for a closer look

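LTBP2 and SKIL took opposite directions between the sides in the 2 libraries, and the difference between the libraries was not tested. The collagen side over PECAM1 side ratio was 0.728 for LTBP2 in the deep aorta cells and 1.14 in the lung cells. For SKIL it was 0.855 in the deep aorta cells and 1.11 in the lung cells. Both genes stayed within 2-fold in each library.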

How the results depend on the processing

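No gene past 2-fold turned to the other side of 1 under any alternative. Ratios within 2-fold did cross 1 for TGFB1 in the aorta against the lung (0.715 to 1.12) and in S against G1 (0.875 to 1.09 in the aorta, 0.984 to 1.05 in the lung), for TGFBR2 in the aorta against the lung (0.978 to 1.45), for TGFBR1 between the lung sides (0.960 to 1.24) and in S and G2M against G1 of the aorta (0.587 to 1.73 and 0.594 to 1.31), and for SKIL in G2M against G1 of the aorta (0.700 to 1.08). TGFB3 ratios between phases, from few UMIs, also crossed 1. Between the sides, 3 to 5 genes were past 2-fold in the aorta and 5 in the lung under every alternative, with 3 in aorta cells under 5000 genes, where TGFB1 was at 1.78. In the deep aorta against the lung, 0 genes past 2-fold became 1 with cells thinned to 5000 UMIs, 4 at a 1.5-fold threshold and 2 with aorta cells under 5000 genes in place of the deep cells. For S against G1 in the aorta, 0 became 1 without a minimum of UMIs, 2 at 1.5-fold and 3 in the cells under 5000 genes. For G2M against G1 in the aorta, 1 became 2 under each of these settings, and for S against G1 in the lung 0 became 1 at 1.5-fold. Among alternatives chosen after seeing the data, cells without a UMI of the other side gave 1 for aorta against lung and 1 for S against G1 in the aorta, where TGFB2 reached 0.497 from 21 S and 46 G1 cells. Aorta cells under 5000 genes with 1% or more mitochondrial UMIs gave 2 and 1. No share over all genes is given for these alternative settings, so the counts are not read as a result about these genes. The collagen over PECAM1 ratio ranged from 0.0810 to 0.134 for TGFB2, 0.114 to 0.172 for TGFBR2, 55.6 to 108 for TGFB3 and 1.78 to 2.67 for TGFB1 in the aorta. For PMEPA1 it ranged from 1.41 to 2.37 there. The cause of each change was not tested. No paired analysis was possible because each tissue gave 1 library. Depth limits TGFB3 on the PECAM1 side and TGFBR1 in single lung cells.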
